A study of Mus musculus with 8 samples.

Results

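Distal intronic c-Jun peaks are the c-Jun binding sites of mouse epiblast stem cells (EpiSCs) that lie deep inside protein-coding genes. They were chosen by position alone. The centre of the peak had to lie inside a protein-coding transcript of GENCODE vM21 basic (mm10), in no exon of such a transcript, and more than 10 kb from every protein-coding transcription start site (TSS). This held for 4867 of the 16166 peaks of the EpiSC list, or 30.1% (95% Wilson interval 29.4 to 30.8%), and of the 22198 peaks of both deposited lists. The bases that meet the same rule make up 27.3% of the assembled genome.

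c-Jun was profiled by ChIP-seq in the wild type EpiSC line and in kEpiSCs, an EpiSC line that carries Klf4 under the CAG promoter and an Oct4-GFP reporter. Both lines were grown without feeders in a medium with Activin A and bFGF. Apart from the making of the kEpiSC line, no other treatment is given. For Klf4-transgenic lines the study's methods name lentiviral infection and drug selection. The strain label of the EpiSC c-Jun libraries is CBA/CaJ X C57BL/6J, which is not the cross that the study's methods give for its EpiSCs. That cross used OG2 males, and the study uses OG2 as a name of the Oct4-GFP reporter. By those methods both lines would carry the reporter. The 8 libraries were 2 ChIP and 2 input for each line, with 1 peak list a line, which the sample labels name under the first ChIP replicate. The spread between replicates could therefore not be measured, each line is 1 cell line, and the intervals below cover counting error only. The antibody field of the labels and the study's methods name c-Jun as the target, while their protocol names H3K27ac. Fold enrichment means the ChIP reads at the summit over the local background as the peak caller gave it, with 1 added to both. EpiSC peaks rested on a median of 10 reads at the summit (5 to 159), so many of them rest on few reads.

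c-Jun is a basic leucine zipper protein that binds DNA as a dimer, with Fos family partners in the classical AP-1 complex and with ATF family partners at other sites. The AP-1 complex binds TGASTCA, where S is C or G, and dimers with ATF or CREB proteins prefer TGACGTCA, the cAMP response element (CRE). AP-1 binds mostly away from promoters, and introns hold many of the enhancers of the genes they belong to or of genes next to them.

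The 10 highest-scoring members are shown first, because they show what the strongest of these sites look like. Each line gives the mm10 reference from 50 bases before to 50 bases after the summit, on the strand of the host gene. Capitals mark TGASTCA on either strand or, where these bases hold none, the forms TGACTAA and TGACTCG, each of which differs from TGASTCA at 1 base.
Fars2, chr13:36203175-36203275, plus strand: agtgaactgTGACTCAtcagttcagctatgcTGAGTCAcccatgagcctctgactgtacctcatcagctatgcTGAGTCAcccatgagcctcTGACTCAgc
Runx1, chr16:92620894-92620994, minus strand: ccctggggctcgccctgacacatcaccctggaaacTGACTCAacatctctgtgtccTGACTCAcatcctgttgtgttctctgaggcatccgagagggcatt
Fmnl2, chr2:52955226-52955326, plus strand: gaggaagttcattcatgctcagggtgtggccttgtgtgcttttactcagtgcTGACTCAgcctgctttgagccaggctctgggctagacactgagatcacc
Pgm2, chr5:64112438-64112538, plus strand: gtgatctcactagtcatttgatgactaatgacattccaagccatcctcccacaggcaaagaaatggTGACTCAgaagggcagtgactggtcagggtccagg
Cdc42bpb, chr12:111353566-111353666, minus strand: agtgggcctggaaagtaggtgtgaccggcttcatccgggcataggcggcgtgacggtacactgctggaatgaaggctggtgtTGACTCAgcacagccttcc
Ltbp1, chr17:75110590-75110690, plus strand: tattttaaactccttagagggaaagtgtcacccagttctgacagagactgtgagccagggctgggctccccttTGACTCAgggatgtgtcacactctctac
Neo1, chr9:58979180-58979280, minus strand: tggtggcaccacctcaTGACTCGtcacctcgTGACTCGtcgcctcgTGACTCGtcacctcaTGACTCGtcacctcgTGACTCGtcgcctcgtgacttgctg
Hsf2bp, chr17:32003394-32003494, minus strand: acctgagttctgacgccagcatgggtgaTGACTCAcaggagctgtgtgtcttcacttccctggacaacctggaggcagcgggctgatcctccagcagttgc
Cftr, chr6:18271142-18271242, plus strand: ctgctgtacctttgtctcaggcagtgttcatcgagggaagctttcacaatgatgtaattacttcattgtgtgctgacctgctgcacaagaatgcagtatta
Ssh1, chr5:113965100-113965200, minus strand: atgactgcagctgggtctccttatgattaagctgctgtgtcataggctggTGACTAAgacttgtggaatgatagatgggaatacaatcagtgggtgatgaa

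The highest-scoring member lay in the first intron of Fars2, which encodes the mitochondrial phenylalanyl-tRNA synthetase, and the bases shown hold 4 TGASTCA sites. Its fold enrichment was 28.1 in EpiSCs and 25.2 at the overlapping kEpiSC peak. The second was in Runx1, the gene of a blood-forming transcription factor, with 2 sites 21 bases apart and folds of 25.3 and 20.3. Fmnl2 (23.4 in EpiSCs and 16.9 in kEpiSCs), Cdc42bpb (23.9 and 11.5) and Ssh1 (22.6 and 13.3) encode a formin, a kinase bound by Cdc42 and a cofilin phosphatase, which all act on actin. Ltbp1 (23.9 and 15.4) encodes a protein that holds latent TGF-beta in the matrix, and Neo1 (23.3 and 19.1) encodes the receptor neogenin. Pgm2 (23.5 and 20.1) encodes a sugar phosphate mutase, Hsf2bp (23.3 and 13.7) a meiotic recombination factor and Cftr (20.6 and 12.5) a chloride channel. All 10 were found in both lines, and the fold was lower in kEpiSCs at each of them, which is partly set by their choice on the EpiSC score. Each rested on 32 to 40 reads in EpiSCs. Their distance to the nearest TSS ran from 19665 bp at Pgm2 to 100362 bp at Cftr.

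The AP-1 site was present near the summit of most of them. Of the 10, 7 held TGASTCA within 50 bases of the summit. The Cftr member held 1 site within the central 200 bp of the peak but outside the bases shown. The Neo1 member had no TGASTCA there, and a short tandem repeat around its summit, outside the central window of this wide peak, held 5 copies of TGACTCG. The Ssh1 member had TGACTAA at the summit. Fmnl2, Neo1 and Ssh1 were the 3 highest-scoring members with neither TGASTCA nor TGACGTCA in the central 200 bp, and at Fmnl2 the site lay beside the summit of a wide peak, outside the central window.

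Members had a median fold enrichment of 6.35 (quartiles 5.29 and 8.21, range 2.71 to 28.1). Their width ran from 115 to 1322 bp with a median of 186 bp, and the reads at the summit from 5 to 43 with a median of 10. The central 200 bp held TGASTCA in 2494 members, or 51.2% (49.8 to 52.6%), against 4.03% (3.65 to 4.44%) of windows of the same length 2 kb to either side. Over all 16166 peaks the share was 45.9%. Of the members, 2056 held 1 site, 438 held at least 2 and 40 held at least 3. In members with a site, the nearest one lay a median of 23 bp from the summit, and 53.8% (51.8 to 55.8%) had it within 25 bp. The profile of sites around the summit reached 7.34 per 100 members in a bin of 10 bp.

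**Figure D1:**
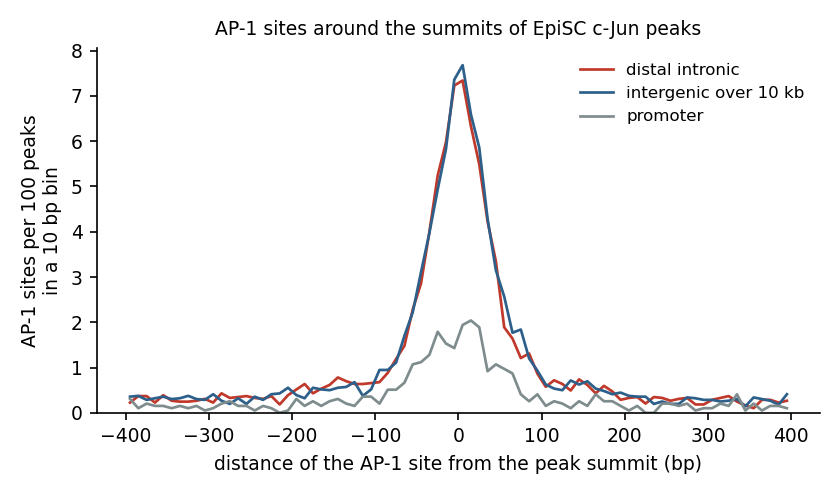
TGASTCA sites per 100 peaks in bins of 10 bp (y axis) against the distance from the peak summit in bp (x axis), for distal intronic, intergenic and promoter peaks of EpiSCs. The distal intronic line peaks at 7.34 next to the summit, close to the intergenic line at 7.68, and the promoter line stays at or below 2.04.

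Near forms of TGASTCA were more frequent in members without it than in their flanks, but were common in both. Of 2373 members without the site in the central 200 bp, 1575 (66.4%, 64.4 to 68.2%) had a sequence with 1 mismatch, against 47.0% (45.6 to 48.5%) of their 4544 flanking windows without the site. The other 798 members (16.4% of all members, 15.4 to 17.5%) had no form with fewer than 2 mismatches. An exact site lay within 100 bp of the summit, outside the central window, in 277 of the 2373 (11.7%, 10.4 to 13%). Not all forms with 1 mismatch were more frequent than in the flanks. TGACTAA, the form in the Ssh1 member, was in 11.5% (10.2 to 12.8%) of the 2373 centres against 2.28% (1.89 to 2.74%) of their flanks, which is 5.04 times more often. TGACGCA was at 2.95% against 0.506% (5.83 times). TGACTCG, which reads CGAGTCA on the other strand, was at 2.99% against 0.632% (4.73 times). The last 2 forms hold a CpG. TGAATCA was at 8.47% against 2.34% (3.62 times), whereas TGAGCCA (7.50% against 7.33%) and TAACTCA (2.70% against 2.70%) had close to the same share in both. The full CRE, TGACGTCA, was in 74 members (1.52%, 1.21 to 1.90%), 61 of them without TGASTCA, against 0.0822% of flanking windows.

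The bases next to the site also differed between sites under a member and other sites. Distal introns of the genome hold 124562 TGASTCA sites, of which 2986, or 2.40% (2.31 to 2.48%), lay in the central 200 bp of a member. Written with the central base as G, the site aTGAGTCAc was under a member at 330 of 6709 places (4.92%, 4.43 to 5.46%) and gTGAGTCAc at 325 of 8431 (3.85%, 3.46 to 4.29%). The site tTGAGTCAa, with the same 7 bases between other neighbours, was under a member at 11 of 5849 places (0.188%, 0.105 to 0.336%). A T before or an A after the site gave 0.873% (0.792 to 0.963%) of 45565 sites, and the other neighbours 3.28% (3.15 to 3.40%) of 78997 sites. In the kEpiSC list, a separate ChIP, these shares were 0.419% (0.364 to 0.483%) and 1.66% (1.57 to 1.75%). For that list, sites in the central 200 bp of any kEpiSC peak were counted. Among sites outside soft-masked repeats, the values were 0.946% and 3.59% in EpiSCs. The order was the same in both lists, and it is given as a description without a test.

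The orientation of the site relative to the host gene differed little between sites under a member and all sites. The site is not a perfect palindrome, and it read as TGAGTCA on the strand of the host gene at 1469 of 2960 sites under a member (49.6%, 47.8 to 51.4%), leaving out sites in genes on both strands. Over all such sites of distal introns the share was 51.5% (51.2 to 51.7%), just above the interval of the sites under a member, and the difference was not tested.

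The next question was whether distal intronic binding differs from binding elsewhere. The class most like it was that of intergenic peaks more than 10 kb from a TSS, with 5596 peaks, and none of 4 measures passed the test of a difference. TGASTCA was in 51.2% of distal intronic and 50.6% of intergenic peaks (difference 0.60 points, 95% Newcombe interval -1.32 to 2.52, adjusted p = 0.608, two-sided Fisher's exact test). A kEpiSC peak overlapped 30.8% and 31.3% (difference -0.532, -2.31 to 1.25, adjusted p = 0.608, Fisher's exact test). A fold over the list median of 6.16 was found in 53.5% and 53.8% (difference -0.288, -2.20 to 1.63, adjusted p = 0.783, Fisher's exact test). TGACGTCA was in 1.52% and 1.36% (difference 0.162, -0.295 to 0.633, adjusted p = 0.608, Fisher's exact test). The intervals set how large a difference these counts leave room for. p-values were adjusted by Benjamini-Hochberg over 15 tests, and they describe peaks of 1 list, in which near peaks are not independent.

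Promoter peaks, with the centre within 1 kb of a TSS, were a different kind of peak. TGASTCA was in 16.6% of 1956 promoter peaks (15.0 to 18.3%), 34.7 points below the members (32.5 to 36.8, adjusted p = 5.73e-164, Fisher's exact test). TGACGTCA went the other way, with 6.49% (5.48 to 7.67%) of promoter peaks and 1.52% of members (difference -4.97 points, -6.19 to -3.89, adjusted p = 2.58e-24, Fisher's exact test). kEpiSC peaks overlapped 14.3% of promoter peaks, 16.5 points fewer than of the members (14.4 to 18.5, adjusted p = 1.19e-47, Fisher's exact test), and 31.5% had a fold over the list median, 22.0 points fewer (19.5 to 24.4, adjusted p = 5.36e-61, Fisher's exact test). The central 200 bp had a median GC content of 62.5% in promoter peaks and 49.5% in members, and the local background was 0.890 and 0.604 reads. The part of GC content and background in these differences was not tested, and the kEpiSC overlap was not compared at like fold.

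Introns closer to a TSS gave a smaller contrast. Peaks in introns 1 to 10 kb from a TSS held TGASTCA in 50.1% of 1760 cases (difference 1.13, -1.59 to 3.85, adjusted p = 0.573, Fisher's exact test). kEpiSC peaks overlapped 26.5% of them, 4.28 points fewer than of the members (1.81 to 6.68, adjusted p = 0.00135, Fisher's exact test). A fold over the list median was found in 50.5% (difference 2.97, 0.249 to 5.69, adjusted p = 0.0571, Fisher's exact test), which missed the threshold of 0.05.

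**Figure D2:**
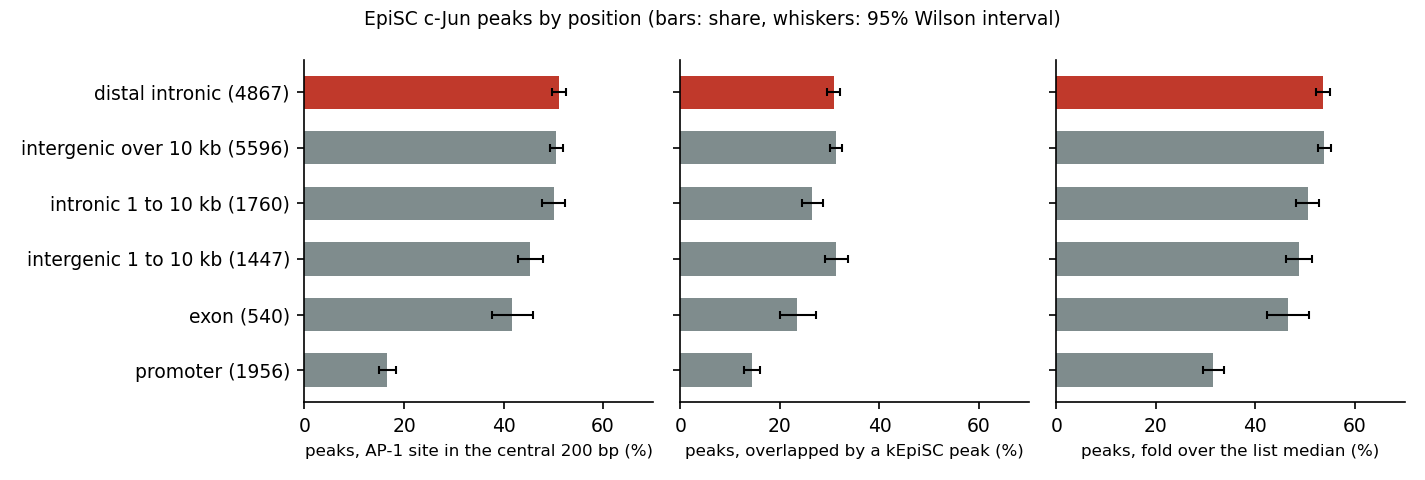
Share of EpiSC c-Jun peaks (x axes, in %) with TGASTCA in the central 200 bp, with an overlapping kEpiSC peak, and with a fold over the list median of 6.16, by position class (y axis, number of peaks in brackets). Bars are shares and whiskers 95% Wilson intervals. Distal intronic peaks (51.2%, 30.8% and 53.5%) lie level with intergenic peaks over 10 kb from a TSS (50.6%, 31.3% and 53.8%) and above promoter peaks (16.6%, 14.3% and 31.5%).

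Peaks at these sites were partly shared with kEpiSCs. A kEpiSC peak overlapped 1497 members by at least 1 bp (30.8%, 29.5 to 32.1%). The members found in kEpiSCs had a median fold of 8.21 in EpiSCs and of 7.69 in kEpiSCs, and the members not found had a median of 6.01 in EpiSCs. In the other direction, 1503 of 1905 distal intronic kEpiSC peaks overlapped an EpiSC peak (78.9%, 77.0 to 80.7%). The 2 lists differ in length, 16166 and 6032 peaks, and the share found in kEpiSCs is also set by how many peaks were called there. Of the distal intronic kEpiSC peaks without an EpiSC peak, 51.7% (46.9 to 56.6%, 208 of 402) held TGASTCA. Of those with an EpiSC peak, 64.8% (62.4 to 67.2%, 974 of 1503) held it.

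Members with the AP-1 site were found in kEpiSCs more often than members without it. The shares were 37.4% of 2494 (35.5 to 39.3%) and 23.8% of 2373 (22.1 to 25.6%), a difference of 13.6 points (11.0 to 16.1, adjusted p = 2.58e-24, Fisher's exact test). The fold was also higher with more sites, with medians of 5.99 without a site, 6.84 with 1 site and 7.94 with at least 2, and kEpiSC peaks overlapped 23.8%, 33.7% and 54.6% (49.9 to 59.2%) of these members. Members with TGACGTCA and no TGASTCA had a median fold of 6.35, and 21.3% of 61 (12.9 to 33.1%) were found in kEpiSCs. Since site and fold moved together, the comparison was repeated within each of 3 equal groups of members by fold. In the lowest (fold up to 5.47), 20.1% with and 9.35% without the site were found in kEpiSCs (difference 10.7, 7.18 to 14.5, adjusted p = 3.54e-09, Fisher's exact test). In the middle one (5.47 to 7.53) the shares were 28.1% and 19.3% (difference 8.81, 4.66 to 12.9, adjusted p = 7.45e-05, Fisher's exact test). In the highest (from 7.53) they were 55.8% and 53% (difference 2.82, -2.16 to 7.81, adjusted p = 0.42, Fisher's exact test), so no difference was shown there. Whether the 3 differences differ from each other was not tested. The 3 groups are given for sites in the central 200 bp only. With sites counted within 100 bp of the summit, the shares over all members were 39.2% and 20.9% (difference 18.4, 15.8 to 20.8).

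When ranked by fold in 10 groups of 486 or 487, the members held TGASTCA in 35.5% of the lowest group (31.4 to 39.9%) and 64.3% of the highest (59.9 to 68.4%). kEpiSC peaks overlapped 12.9% (10.2 to 16.2%) and 80.3% (76.5 to 83.6%). At least 2 sites were in 3.9% and 18.9%. Summits in the lowest group had a median of 7 reads and those in the highest 20. TGACGTCA was in 1.03% of the lowest group (0.439 to 2.38%), 2.46% of the fifth and 1.85% of the highest (0.975 to 3.47%). These counts are too small to show a trend or its absence.

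**Figure D3:**
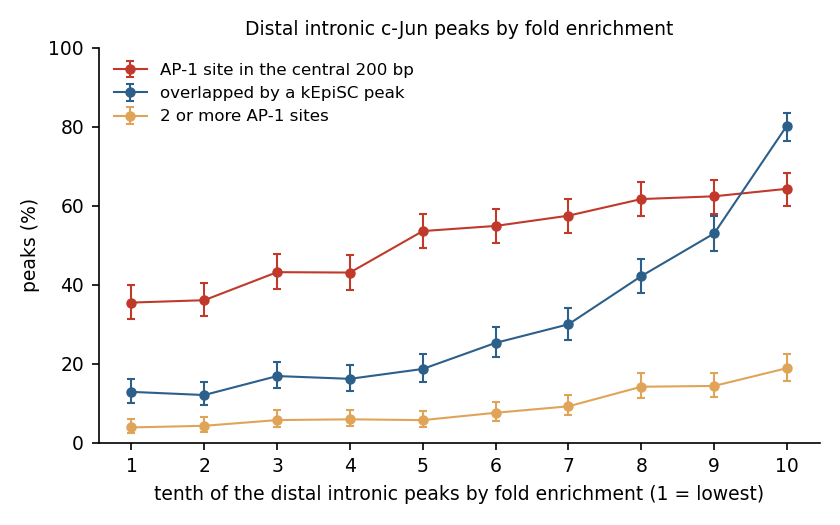
Share of distal intronic c-Jun peaks (y axis, in %) with TGASTCA, with at least 2 TGASTCA sites, and with an overlapping kEpiSC peak, in 10 groups ranked by fold enrichment (x axis, 1 is the lowest). Points are shares and whiskers 95% Wilson intervals. The kEpiSC share goes from 12.9% to 80.3% and the TGASTCA share from 35.5% to 64.3%.

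Position inside the gene was uneven. The distance from the nearest TSS had a median of 35045 bp (quartiles 19826 and 65093, range 10003 to 738074). For 3715 members (76.3%, 75.1 to 77.5%) that TSS belonged to the host gene, and for the rest to another gene, and 85 members lay in more than 1 gene. The first intron held 1310 members, or 26.9% (25.7 to 28.2%), while 19.6% of distal intronic bases are in first introns. This corresponds to 9.26 members per Mb of distal first intron and 6.12 per Mb of later introns. TGASTCA sites had the same order, with 2.99% (2.79 to 3.21%) under a member in first introns and 2.25% (2.16 to 2.34%) in later ones. Members of first introns held TGASTCA in 48.7% (46.0 to 51.4%) and those of later introns in 52.2% (50.5 to 53.8%), with median folds of 6.38 and 6.35. The host introns were long, with a median of 27880 bp, and members lay a median of 5859 bp from the nearest exon of the host transcript.

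The density of members went down with distance from a TSS. It was 9.31 per Mb at 10 to 20 kb, 8.72 at 20 to 50 kb, 7.13 at 50 to 100 kb and 2.88 beyond 100 kb. TGASTCA sites under a member made up 2.90% (2.70 to 3.12%), 2.99% (2.83 to 3.17%), 2.53% (2.35 to 2.73%) and 1.31% (1.20 to 1.43%) of the sites at these distances. The 627 members beyond 100 kb had a median fold of 6.77, against 6.35 in each of the nearer ranges, and TGASTCA in 56.0% (52.1 to 59.8%). A kEpiSC peak overlapped 28.4% of them (25 to 32.0%) and 30.2 to 31.9% of the members in the nearer ranges.

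**Figure D4:**
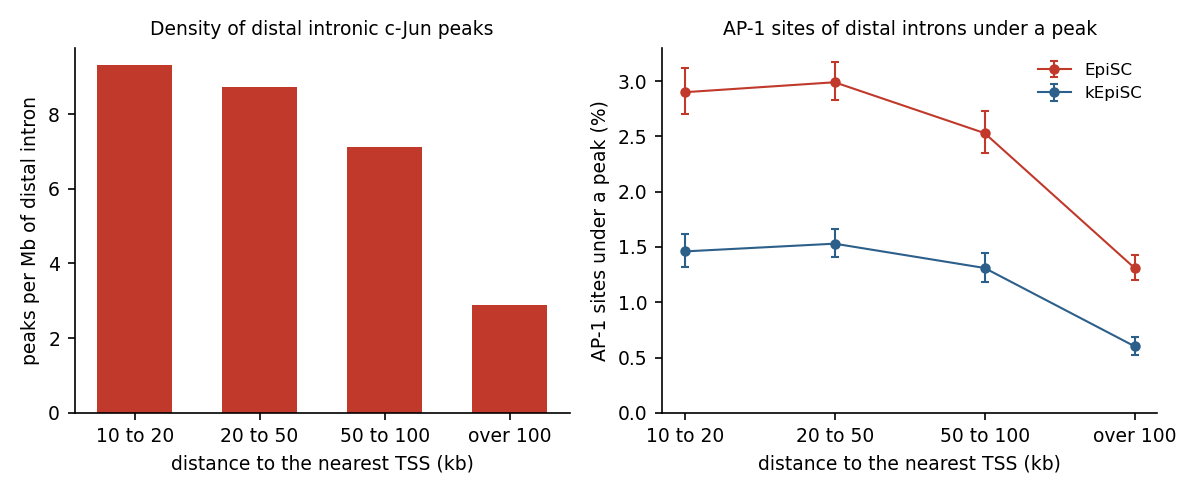
Left, distal intronic c-Jun peaks per Mb of distal intron (y axis) by distance to the nearest TSS (x axis, in kb). Right, share of TGASTCA sites of distal introns under a peak (y axis, in %, with 95% Wilson intervals) over the same distances. A site counts as under a peak in the central 200 bp of a distal intronic EpiSC peak or of any kEpiSC peak. The density is 9.31 per Mb at 10 to 20 kb and 2.88 beyond 100 kb, and the EpiSC share of sites 2.90% and 1.31%.

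Repeats and chromosomes also differed. Soft-masked repeat bases made up 11.4% of the central 200 bp of members, 23.8% of their flanks and 29.0% of distal intronic bases, and 1.37% of masked against 2.59% of unmasked TGASTCA sites were under a member. Only uniquely mapped reads were kept by the authors, and the part of mappability in this was not tested. Chromosome X held 23 members (0.712 per Mb of distal intron against 7.03 on the autosomes) and 9 distal intronic kEpiSC peaks. The number of copies of X in these lines was not tested. Another peak lay within 10 kb of 2256 members (46.4%, 45.0 to 47.8%), and this share was not computed over all peaks. A TSS of a long non-coding RNA lay within 1 kb of 97 members (1.99%, 1.64 to 2.43%). The share was 4.44% over all EpiSC peaks and 4.72% in intergenic peaks more than 10 kb from a TSS.

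Just inside the 10 kb limit were members of Gtf2a1 (10003 bp from the nearest TSS, fold 5.29) and Myof (10017 bp, 6.83). Just outside were intronic peaks of Cx3cr1 (9994 bp, 17.3), Bcr (9976 bp, 7.55) and Grm2 (9969 bp, 8.21).

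The 12 of 15 motifs that neither contain nor resemble the AP-1 site stood at most 2.54 times above the flanks, against 12.7 times for TGASTCA and 18.5 times for TGACGTCA. Both strands were searched for each sequence as spelled, over the same central and flanking windows, and a match is not a bound site. The median GC content was 49.5% in the centres of members and 45.5% in their flanks. Its part in the motif shares was not tested. ACATTCC, the site of the TEAD factors of the Hippo pathway, was in 6.64% (5.97 to 7.37%) of members, 2.61% (2.31 to 2.95%) of flanks and 5.89% of all peaks. It was more frequent in members without TGASTCA (7.96%, 6.94 to 9.12%) than in those with it (5.37%, 4.55 to 6.33%). TCAAGGTCA, the site of the nuclear receptor Esrrb, was in 1.17% of members, 0.483% of flanks and 1.31% of all peaks. CCTGCTG (ZIC factors) was in 10.8%, 6.01% and 9.72%, CAGCTG (an E-box) in 17.2%, 10.2% and 15.9%, and CCACACCC (KLF factors) in 3.58%, 2.03% and 3.42%. CCTTTGT (SOX factors) was in 6.6%, 4.19% and 5.95%, and the octamer ATGCAAAT (POU factors) in 1.52%, 1.10% and 1.34%. CCGGAAGT (ETS factors, 0.431%, 0.175% and 1.12%) and GGGGCGGGG (SP factors, 0.596%, 0.360% and 1.88%) were rare in members and more frequent in promoter peaks, with 5.11% and 9.51%. TGTTTAC (FOX factors) was in 2.98%, 2.60% and 2.85%. For GATA factors the sequence searched, AGATAAG, was in 2.12%, 2.33% and 2.11%. It and CCAATCA (the site of NF-Y, 1.79%, 2.08% and 2.31%) were not above the flanks. TGACTCAGC, which contains TGACTCA and ends in bases preferred by small Maf dimers, was in 6.33% (5.68 to 7.05%), 0.360% and 5.33%.

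The members lay in 2289 protein-coding genes, which is 19.4% of the 11776 genes with any distal intronic base. The share followed the length of distal intron, with 2.58% (2.07 to 3.22%) of the genes in the shortest of 4 equal groups (up to 8.22 kb), 8.97% and 22.0% in the middle ones and 44.2% (42.4 to 46.0%) in the longest (60.4 kb and over). Per Mb, the 4 groups had 7.43, 8.19, 9.80 and 6.04 members. A single member was in 1223 genes, at least 3 were in 567 and at least 10 in 35. A promoter peak was also present at 380 of the hosts (16.6%) and at 9.59% of the genes with distal intronic bases and no member.

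The genes with the most members were large. The annotated gene Gm20388 had 47 members and Fgfr2, an FGF receptor, had 24, but these rest on GENCODE transcripts with 3015 and 2247 kb of distal intron, and curated RefSeq transcripts gave no distal intronic peak in either gene. Dlgap1, a synaptic scaffold gene, had 22 members in 769 kb, and Sgms1, Nsmce2 and Atxn1 had 18 each. Sgms1 encodes a sphingomyelin synthase, and 10 of its 18 members were found in kEpiSCs, with a top fold of 20.9. Dst (17 members), a linker of the cytoskeleton, Pakap (16), Etl4 (16) and Sik3 (15), a salt-inducible kinase, followed, and RefSeq transcripts gave each of these 4 between 15 and 18 such peaks. Pde4d, a phosphodiesterase gene, also had 15 members and tied with Sik3.

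Per length, the densest genes with at least 5 members were Atf1, Sfi1, Mras, Dusp1 and Hk2. Atf1, a CREB family transcription factor, had 7 members in 21.4 kb of distal intron (327 per Mb), with folds from 4.68 to 10.1. Mras, a small GTPase of the Ras family, had 5 members with folds of 9.58 to 18.6, and 3 of them were found in kEpiSCs. Hk2, a hexokinase, had 5 in 33.4 kb. The 13 members of Sfi1, a centrosome gene, had a median local background of 3.42 reads (1.37 to 7.12) against 0.604 over all members, and soft-masked bases made up 36.8% of their centres. The 5 members assigned to Dusp1, which encodes a phosphatase of JNK and p38, lie in a long GENCODE transcript, and RefSeq transcripts gave none in the gene.

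The members were then read by 13 gene lists, set beside the 19.4% of all genes with distal intron that host a member and the 6.73 members per Mb of all distal introns. None of these shares was tested. The lists were not matched for the length of distal intron. Over all genes, the share of hosts went from 2.58% in the shortest of 4 equal groups to 44.2% in the longest. Over all members, 51.2% held TGASTCA and 30.8% were found in kEpiSCs. Over the 13 lists the TGASTCA share ran from 33.3% to 59.4% (19 of 32 members, genes of AP-1 proteins and their relatives). The low end rests on few members, 3 of 9 in primed epiblast genes (12.1 to 64.6%) and 1 of 3 in apoptosis genes (6.15 to 79.2%). The share found in kEpiSCs ran from 0 of 3 members (apoptosis genes) and 18.4% (TGF-beta, Nodal and BMP genes) to 56.2% (AP-1 proteins and their relatives). Of 39 genes of the actin cytoskeleton and focal adhesions, 28 hosted a member (71.8%, 56.2 to 83.5%), with 107 members in 6.30 Mb or 17.0 per Mb. TGASTCA was in 43.0% of them (34.0 to 52.5%), against 51.2% of all members. Among them were Arhgef28, which encodes a guanine nucleotide exchange factor (top fold 14.8 in EpiSCs and 9.41 in kEpiSCs), and Lpp, which encodes a focal adhesion protein and had 12 members (15.1, not found in kEpiSCs). Integrin and matrix genes hosted members in 13 of 35 cases (37.1%, 14.7 per Mb). The top folds included 14.3 at the laminin gene Lamc1 and 13.7 at the integrin gene Itgb6, which had 8 members. Cell junction and polarity genes hosted members in 14 of 33 cases (42.4%), with 40 members in 9.25 Mb or 4.32 per Mb. Much of this length lies in Dlg2 (2 members in 1894 kb), Magi2 (3 in 1421 kb) and Pard3b (2 in 985 kb). These genes were named after their values were seen. Cgnl1 and Magi1, which encode tight junction proteins, had top folds of 17.8 and 14.4.

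Cdh1, the gene of E-cadherin, which is on that list and which the study names, had 4 members in its intron 2, close to each other. Their folds were 7.06, 11.7, 7.85 and 12.8 in order along the chromosome. The first, second and last were found in kEpiSCs, with folds of 6.95, 15.0 and 7.48, and the third was not. TGASTCA was in the first only. Fat1, a protocadherin gene, had 1 weak member (fold 3.70, 6 reads) with a TGACGTCA site.

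Naive pluripotency genes hosted members in 5 of 17 cases (29.4%, 13.3 to 53.1%), namely Esrrb, Fbxo15, Manba, Pecam1 and Tet2, with 17 members or 30.1 per Mb of their 0.566 Mb. Of these 17, 8 lay in Manba, a lysosomal mannosidase gene, so 1 gene holds much of the count. Esrrb, a nuclear receptor of naive cells, had 3 members in intron 1 with folds of 5.99, 7.41 and 8.47, and the last 2 were found in kEpiSCs with folds of 4.38 and 5.14. Pecam1 had 2 (top fold 7.41). Dppa5a, Klf4, Pou5f1, Nanog and Jun have no distal intronic base and could host no member. Zfp42 with 0.399 kb and E2f7 with 25.9 kb hosted none. Primed epiblast genes hosted members in 4 of 10 cases (16.0 per Mb), with top folds of 7.88 at Cdh2, 6.25 at Etv5 and 6.41 at Grhl2.

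Genes of AP-1 proteins and their relatives hosted members in 8 of 16 cases (50.0%, 28.0 to 72.0%), with 32 members or 28.8 per Mb, and 18 of the 32 (56.2%, 39.3 to 71.8%) were found in kEpiSCs, against 30.8% of all members. Of the 32, 12 lay in Bach2 (top fold 12.3), a gene named after its values were seen, and 7 in Atf1. Bach1, a repressor that dimerises with small Maf proteins, had 4 members, the strongest with folds of 15.3 in EpiSCs and 10.5 in kEpiSCs. Creb5 (13 and 5.54) and Atf3 (12.3 and 7.86), both c-Jun partners, followed. With RefSeq transcripts the list held 24 members, and none was in Atf3. Kinases and phosphatases of the JNK and p38 pathway hosted members in 10 of 21 cases (47.6%, 15.4 per Mb), with Taok3 at 17.3, Dusp1 at 15.2 and Dusp10 at 14.9. RefSeq transcripts gave 22 members in place of 29.

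Of the signalling lists, Hippo pathway genes hosted members in 10 of 20 cases (50.0%, 29.9 to 70.1%, 21.2 per Mb). Tead1, a DNA-binding partner of Yap1, had 10 members (top fold 11.1), and Tead4 and Wwc1 had top folds of 10.9. TGF-beta, Nodal and BMP genes hosted members in 11 of 28 (39.3%, 19.6 per Mb), and 7 of their 38 members (18.4%, 9.22 to 33.4%) were found in kEpiSCs, against 30.8% of all members. Ltbp1 had 11 members, of which the strongest was the only one found in kEpiSCs, and its other folds ran from 4.76 to 10.2. Smad3, which carries Activin and TGF-beta signals to the nucleus, had 9 members with folds from 4.68 to 10.5, 8 of them with TGASTCA, and 2 were found in kEpiSCs. Ski had 2 members (top fold 9.92). FGF, EGF and ERK genes hosted members in 10 of 27 (37.0%, 8.70 per Mb), with Igf1r at 20.4 and Grb2 at 10.9. The 43 members of this list include the 24 assigned to Fgfr2 (top fold 13.7), and RefSeq transcripts gave 19. Wnt pathway genes hosted members in 9 of 23 (39.1%, 10.1 per Mb), with Ror2 at 12.3, Gsk3b at 10.7 and Lrp6 at 9.67. Chromatin repressor genes hosted members in 13 of 28 (46.4%, 13.7 per Mb), with the corepressor gene Rcor1 at 13.7 and Rbbp4 at 13.2. Apoptosis and p53 genes stood at the low end, with 2 of 19 (10.5%, 2.94 to 31.4%, 4.12 per Mb), Bcl2l1 at 8.99 and Trp63 at 6.35.

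**Figure D5:**
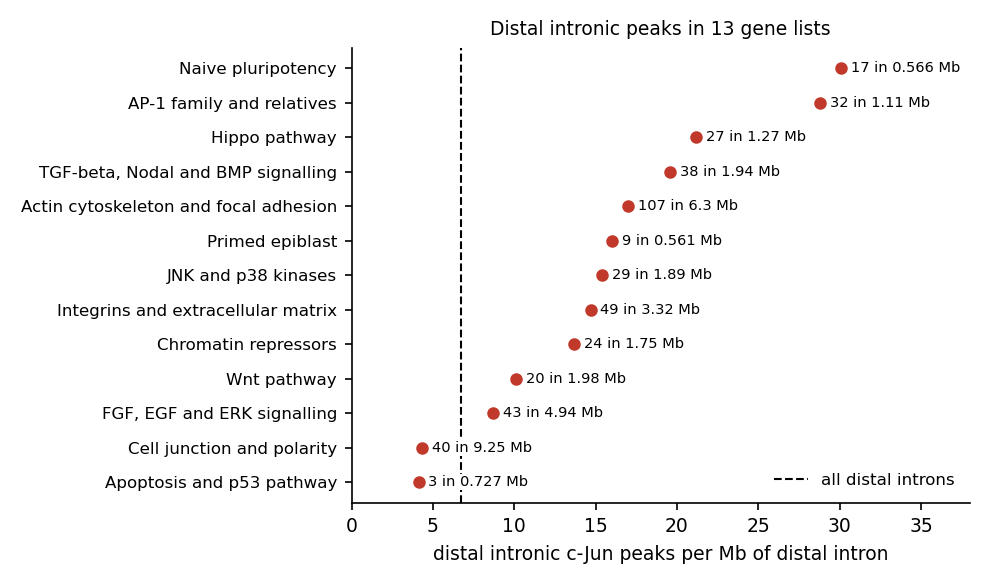
Distal intronic c-Jun peaks per Mb of distal intron (x axis) in the genes of 13 lists (y axis), with the number of peaks and the length behind each point. The dashed line is the value of all distal introns, 6.73 per Mb. Cell junction genes (4.32) and apoptosis genes (4.12) lie below it and the other 11 lists above it, from 8.70 to 30.1. Much of the length of the cell junction genes lies in Dlg2, Magi2 and Pard3b.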

How the data were processed

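ChIP-seq reads were mapped by the authors to mm10 with Bowtie2, only uniquely mapped reads were kept, and MACS2 called peaks with its default settings. bedtools, bcl2fastq and SAMtools are listed in the notes of the submitters as well. For the versions of these tools, the entry is "not given in the sources used here". The deposited peak lists hold, for each peak, the summit position, the score of the peak caller, the ratio of ChIP to local background (fold enrichment), and p and q on the −log10 scale. The methods state that replicates were merged for ATAC-seq, which the ChIP-seq mapping refers to, but do not say so of the c-Jun peak lists, and no values per replicate were analysed. Reads at the summit and the local background were solved from the deposited fold and p-value, which met both within 0.01 in −log10 p for 100% of EpiSC peaks.

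Positions were taken from protein-coding transcripts of GENCODE vM21 basic (mm10). Classes were promoter (within 1 kb of a TSS), exon, intronic and intergenic, the last 2 parted at 10 kb. Sequences came from the GRCm38.p6 reference, the assembly of mm10. First introns were those of the longest hosting transcript. Shares have 95% Wilson intervals, differences 95% Newcombe intervals, and classes were compared by two-sided Fisher's exact tests with Benjamini-Hochberg adjustment over 15 tests. The members, the 13 gene lists, the 15 motifs and the tests were chosen with earlier results of these data known.

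The named genes were the hosts of the 10 highest-scoring members and of the 3 highest-scoring without an AP-1 or CRE site, the 10 genes with the most members, the 5 densest with at least 5 members, up to 3 genes of each list by their highest-scoring member, genes named by the study with Jun, Klf4, Pou5f1 and Nanog, and the 3 peaks on either side of the 10 kb limit. Some genes that this rule names are not reported here. Alternatives covered the distance limit, the summit, RefSeq transcripts, the higher-scoring 50% of the list, 1 peak per 100 kb, the motif window, mismatches and the overlap. Functions were checked on simulated data. The tools were Python 3.11.15 with pandas 2.3.3, numpy 2.4.6, matplotlib 3.10.9 and scipy 1.17.1.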

Additional observations from a re-analysis of the deposited data

How the results depend on the processing

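The 15 results with alternatives were recomputed under 5 to 10 settings each, giving 107 values, of which 95 kept their direction and their side of the threshold or stayed within the limits set for counts and shares. The comparisons with promoter peaks, the kEpiSC overlap against nearer introns and the kEpiSC overlap of members with and without TGASTCA kept their calls under every setting tried. Against nearer introns, the TGASTCA difference passed the threshold with a limit of 20 kb (3.06 points, adjusted p = 0.0226, Fisher's exact test) and was -0.120 points with 100 bp on each side of the summit. Against intergenic peaks the TGASTCA difference was -0.188 points with 1 peak per 100 kb, -0.518 around the summit and -0.339 in the central 100 bp. The TGACGTCA difference was -0.0851 with a limit of 20 kb, -0.0209 around the summit and -0.00999 in the central 100 bp, and the difference in fold was 0.0723 with 1 peak per 100 kb. None of the values against intergenic peaks passed the threshold, and the cause of these changes was not tested. The first intron share was 29.9% with a limit of 5 kb and 22.7% with 20 kb. The share of bases in first introns was not recomputed for these limits, so whether the excess holds there was not tested. The higher-scoring 50% of the list held 2586 members. No paired analysis was possible because the peaks carry no values per replicate, so no replicate could be left out either.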
